A study of Mus musculus with 32 samples.

Results

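The comparison covers 17879 genes, those that the processed tables of both MLL-Af4 leukemia cell types list and that had a mean normalized count of at least 10 in at least 1 of them. They are drawn from 28827 genes listed in either table, of which 26560 are in the Lin- table, 25887 in the CD11b+ table and 23620 in both. For each cell type, the 17879 genes were ranked by their mean and the rank was written as a percentile, so that 100 is the gene with the highest mean. The CD11b+ percentile was then subtracted from the Lin- percentile. A positive difference, in percentile points, means a higher rank in Lin- cells, and a negative one a higher rank in CD11b+ cells.

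The study asked what the RNA-binding protein IGF2BP3 does in leukemia driven by the fusion MLL-Af4, and it sequenced RNA from cells with and without *Igf2bp3*. Lin- cells were bone marrow cells depleted of mature lineages, infected with an MSCV-MLL-FLAG-Af4 retrovirus, selected with G418 and grown in IMDM with cytokines that included FLT3, SCF and IL-6. The CD11b+ population was taken from splenic tumors of mice with MLL-Af4 leukemia, with red cells lysed, by magnetic selection for CD11b, and no culture after that is described. These mice were lethally irradiated and transplanted with donor marrow that had been infected with the same virus and selected with G418. Each cell type gave 3 WT/MLL-Af4 libraries and 3 I3KO/MLL-Af4 libraries. I3KO is a germline deletion of *Igf2bp3*, bred from mice with a floxed exon and a leaky Vav1-Cre, on C57BL/6. The sample labels give the cell type and the genotype, and the study's text gives MLL-Af4 for the RNA-seq cells. Culture, cytokines, transplantation, organ, cell selection and cell type differ together between the groups, so their parts in any difference cannot be told apart. Each table holds 1 mean per gene, the authors' mean over 6 libraries of both genotypes, so there is no replicate check, no test and no error on a difference, and a fixed size of 20 points takes the place of a test.

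A hematopoietic progenitor that becomes a granulocyte first makes the proteases of primary granules, then the proteins of later granules and the receptors of a mature cell. Monocytes and macrophages take another branch, with receptors for antibody, complement and microbial molecules. MLL fusions block this course by holding progenitor transcription factors on, and growth in culture asks of a cell amino acids, sterols, ribosomes and division.

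The ranks were alike over most genes. Spearman's rho across the 17879 genes was 0.804, given as a description, since genes are not independent replicates. The SD of the difference was 18.1 points, the median was 1.55 points, and 10157 genes (56.8%) lay within 10 points. At least 20 points higher in Lin- cells were 1518 genes, 8.49% of all, and at least 20 points higher in CD11b+ cells were 1900 genes, 10.6% of all. Just past the threshold on the Lin- side were *Arl6* (20.00), *2410152P15Rik* (20.01) and *Ralgds* (20.05), and just short of it *Rfx7* (19.9955), *Tgif2-ps2* (19.9955) and *Ltbp4* (19.99). On the CD11b+ side *Gm15236* (-20.01), *Epha7* (-20.02) and *Alpk1* (-20.02) were just past it, and *Phf11* (-19.9955), *Gm43855* (-19.99) and *Gm15719* (-19.98) just short.

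Before the programs, 1 property of the tables bears on which genes can be read. Among 2619 processed pseudogenes, which are retrocopied sequences of mostly abundant mRNAs, 897 (34.2%) were called higher in CD11b+ cells and 36 in Lin- cells, and their median was -11.4 points. They made up 47.2% of all genes called higher in CD11b+ cells. Among 13002 protein-coding genes, ranked with all others, the calls ran the other way, with 1229 higher in Lin- (9.45%) and 798 higher in CD11b+ cells (6.14%), and the median was 2.89 points. With these genes ranked alone the excess turned, to 909 in Lin- and 1000 in CD11b+ cells. The libraries were strand-specific, and the strand of an inserted pseudogene moved with the calls. Of the 1229 coding genes higher in Lin- cells, 21.4% had a pseudogene on the opposite strand wholly inside them, against 6.42% of coding genes within 20 points and 3.88% of those higher in CD11b+ cells. For pseudogenes inside on the same strand, the shares were 6.35% and 6.89% on the Lin- and CD11b+ sides, against 4.31% within 20 points. The median span of these coding genes was 44.9 kb on the Lin- side, 20.0 kb on the CD11b+ side and 23.7 kb within 20 points. The part of span in these shares was not tested. Of the 271 coding genes higher in Lin- cells by at least 40 points, 35.8% held an opposite-strand pseudogene.

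Pairs of a gene and its insert show this split. *Sprr2a2*, a keratinocyte envelope gene, had a mean of 7775 in Lin- and 62.0 in CD11b+ cells, and the pseudogene *Gm5850* inside it had 27.9 and 3505. *Lca5*, a gene of the photoreceptor cilium, had 15493 and 176, and *Rps27a-ps2* inside it 75.8 and 6638. *Cntnap5c*, a neuronal adhesion gene, had 1792 and 21.4, and *Rpl7a-ps5* inside it 12.4 and 1284. These 3 genes of other tissues were high in the Lin- table and their inserts in the CD11b+ table. In 106 of 198 ranked pairs whose coding gene was higher in Lin- cells, the pseudogene was higher in CD11b+ cells. Where the coding gene was within 20 points, this held in 65 of 225 pairs. The 198 pairs came from 185 coding genes, so some genes count more than once.

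Mitochondrial genes with a near-identical nuclear copy showed the same kind of split. *mt-Co2*, a subunit of cytochrome oxidase, had 247 in Lin- and 53098 in CD11b+ cells, whereas its copy *Gm28661* on chromosome 1 had 59512 and 53098. *mt-Co3*, another subunit of that enzyme, had 500.1 and 59714, and its copy *Gm28437* 69856 and 59714. *mt-Atp6*, a subunit of ATP synthase, had 382 and 45739, and its copy *Gm10925* 94447 and 45736. In the CD11b+ table the gene and the copy carried almost the same value, and in the Lin- table only the copy was high. *mt-Nd1* (49081 and 34112) and *mt-Cytb* (58618 and 40127) were high in both tables. *Rps10*, a ribosomal protein gene with pseudogene copies, had 2.01 and 2478, and *Gapdh*, a glycolytic enzyme with many copies, had 348 and 6368.

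How reads that match several places or overlap 2 genes were counted in each table is not given in the sources used here, and its part in these values was not tested. The programs are therefore described with every gene counted, and genes of a list are named mainly from the 11277 protein-coding genes without a pseudogene inside, without a pseudogene named after them and not on the mitochondrial genome. Of these, 916 (8.12%) were higher in Lin- and 698 (6.19%) higher in CD11b+ cells when ranked with all others, but 714 and 850 when ranked alone. Their rho was 0.856. A gene outside that set is marked as having a copy or an insert. In the name of that set, a copy means a pseudogene named after the gene. Genes with a near-identical coding copy, such as *Hba-a2* and *Stfa1*, and genes that overlap another coding gene stay in it.

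**Figure D1:**
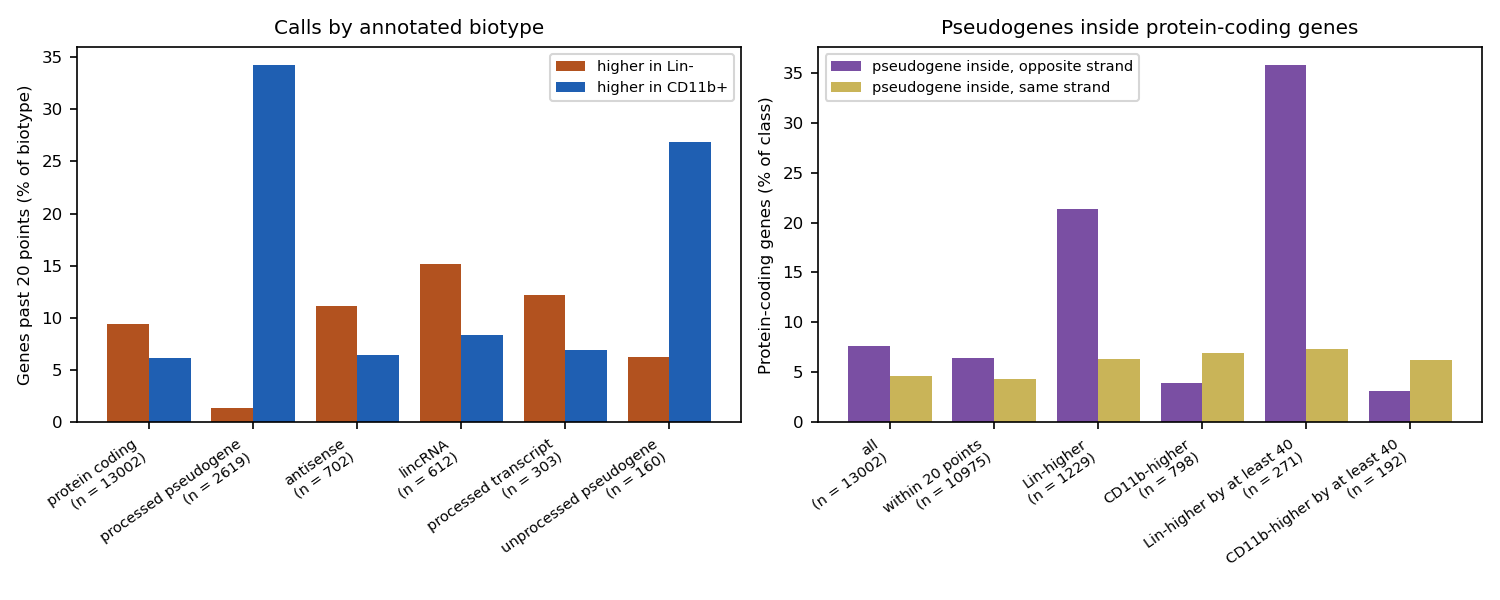
Share of genes at least 20 points higher in Lin- or in CD11b+ cells for the 6 commonest annotated biotypes (left), and share of protein-coding genes with a pseudogene wholly inside them, by strand and by class of difference (right), in percent. Processed pseudogenes reached 34.2% on the CD11b+ side, and opposite-strand inserts were in 21.4% of coding genes higher in Lin- cells and in 35.8% of those higher by at least 40 points.

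**Figure D2:**
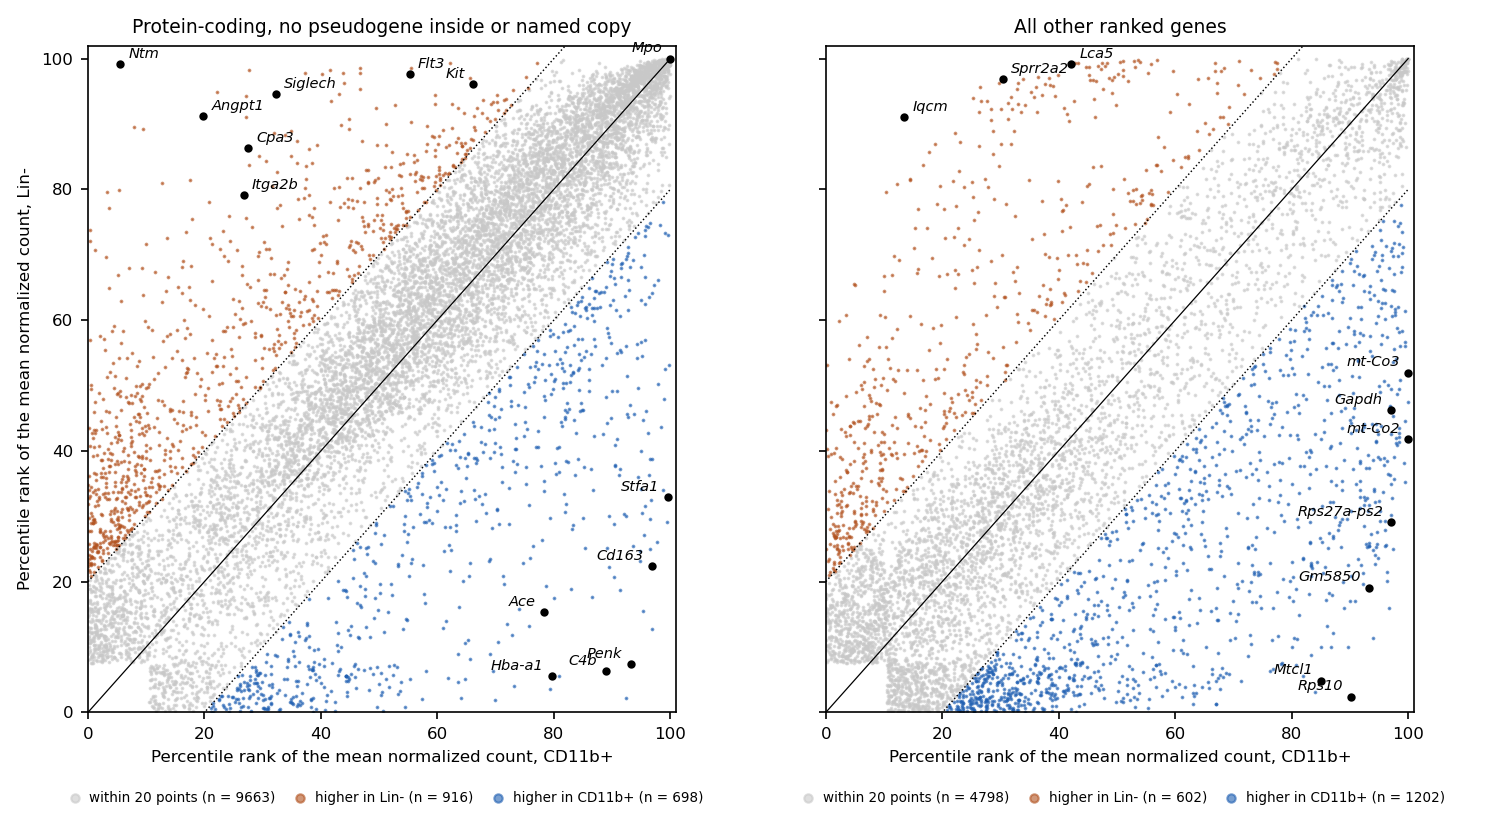
Percentile rank of every gene in Lin- (vertical) against CD11b+ cells (horizontal), for protein-coding genes without a pseudogene inside or a named copy (left) and for all other genes (right). The solid line is equal rank, dotted lines are 20 points, and the empty lower left corner is the filter on low means. *Ntm*, *Angpt1*, *Siglech* and *Flt3* stand at the upper left and *Penk*, *C4b* and *Cd163* at the lower right, and in the right panel *Rps10*, *mt-Co2* and *Gapdh* stand near the right edge.

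The cell type labels were checked on markers. *Kit*, the receptor for stem cell factor, had a mean of 6974 in Lin- and 673 in CD11b+ cells (29.9 points). *Flt3*, a receptor of early progenitors, had 9396 and 390 (42.4 points). *Cd34*, a sialomucin of progenitors, had 9052 and 1291 (17.4 points). These 3 were higher in the cells grown with SCF and FLT3, though *Cd34* did not reach 20 points. *Gata2*, a stem cell transcription factor, had 2176 and 536 (19.8 points), also short of it. On the myeloid side, *Cd14*, the coreceptor for endotoxin, had 582 and 1742 (-30.9 points), *Adgre1*, which encodes F4/80, had 1083 and 2474 (-23.8 points), and *Ly6g*, the antigen of mature granulocytes, had 15.3 and 108 (-23.7 points). *S100a8*, a calcium-binding protein of granulocytes and monocytes, had 2083 and 39348 (-19.1 points). *Itgb2*, the partner chain of CD11b, had 5213 and 25977 (-5.78 points).

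The gene of CD11b itself could not check the sort. *Itgam* is listed only in the CD11b+ table, with a mean of 17.0, and the predicted gene *Gm49368* (chr7:128062683-128128160, GRCm38) overlaps it on the same strand, with 49.1 in Lin- and 77.2 in CD11b+ cells. Other markers differed by few points, though near the top of a ranking a large ratio of means moves a gene little. *Mpo*, the myeloperoxidase of primary granules, had 101212 and 84102 and stood at the top of each ranking (0.01 points). *Lyz2*, the myeloid lysozyme, had 20990 and 72146 (-0.43 points), *Csf1r*, the receptor for M-CSF, had 7910 and 15008 (-2.33 points) and *Myb*, a progenitor transcription factor, had 22675 and 37516 (-0.21 points). *Elane* (14416 and 43055, -0.93 points) and *Prtn3* (14582 and 29591, -0.78 points), also taken as progenitor markers, had higher means in CD11b+ cells. The myeloid marker *S100a9* had 3544 and 36386 (-10.1 points). Both populations thus carried progenitor and myeloid transcripts together. *Ptprc*, the pan-leukocyte antigen CD45, ranked alike (0.85 points).

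The genes of the fusion and of its partner protein ranked near each other. *Igf2bp3*, deleted in 3 of the 6 libraries behind each mean and a gene with a copy or insert, had 2041 and 1355 (-0.50 points). *Kmt2a*, the mouse gene of MLL, had 10973 and 3710 (4.49 points), and *Aff1*, the gene of Af4, had 22792 and 15348 (0.36 points). How much of these came from the virus was not tested. The lncRNA *Xist* of the inactive X chromosome had 91193 and 12560, and the Y-linked *Ddx3y* had 6.88 and 103. The study's methods name female mice for the transplants, and the labels give no sex.

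Late neutrophil genes were the list with the lowest median. Of 24 ranked, 16 were higher in CD11b+ cells and 0 in Lin- cells, with a median of -28.0 points against 1.55 for all genes. *Cd177*, a surface antigen of mature neutrophils, had 120 in Lin- and 11005 in CD11b+ cells (-64.7 points). *Camp*, the cathelicidin of secondary granules, had 151 and 5409 (-59.9 points). *Mmp9*, the gelatinase of tertiary granules, had 187 and 6254 (-58.2 points). Granule genes from each later stage were thus among them, and so was *Cebpe* (507 and 1437, -29.5 points), the transcription factor of that stage. *Chil3*, a chitinase-like protein, had 535 and 33698 (-46.7 points), and *Lcn2*, the siderophore-binding lipocalin, had 517 and 13106.5 (-46.6 points). *Padi4*, which citrullinates histones, had 677 and 4808 (-38.6 points), and *Fpr1*, a receptor for formyl peptides, 8.07 and 127 (-31.3 points). Not every late gene took part. *Ltf*, the lactoferrin of secondary granules, had 457 and 470 (-8.34 points), *Cxcr2*, a chemokine receptor of neutrophils, 168 and 169 (-4.04 points), and *Csf3r*, the receptor for G-CSF, 3250 and 5275 (-7.71 points).

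Primary granule genes stood apart from the late ones. None of 10 passed 20 points and their median was -1.43. Their median Lin- percentile was 87.9, so many of them could not be 20 points higher in CD11b+ cells. *Elane*, the neutrophil elastase, had 14416 and 43055 (-0.93 points), *Prtn3*, proteinase 3, had 14582 and 29591 (-0.78 points) and *Ctsg*, cathepsin G, was at -0.59 points. Near the top of a ranking a large ratio moves a gene by few points, so ratios are given for these as well. Over all genes the median log2 ratio of Lin- to CD11b+ means was 0.74, and log2 ratios here are centred on it. On that scale *Elane* was at -2.32 and *Prtn3* at -1.76, against -7.24 for *Cd177*, the largest difference named among the late genes. The list medians were closer, -1.11 for primary granule and -3.53 for late neutrophil genes. *Lyz2*, given above with the markers, was at -2.52.

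Of 20 monocyte genes, 8 were higher in CD11b+ and 0 in Lin- cells, with a median of -12.0 points, or -22.1 with coding genes free of inserts and copies ranked alone. *Ace*, the angiotensin-converting enzyme, had 19.8 in Lin- and 1179 in CD11b+ cells (-63.0 points), and *Fn1*, fibronectin, had 207 and 4418 (-55.1 points). *Nr4a1*, a nuclear receptor required for patrolling monocytes, had 346 and 1721 (-38.9 points). *Treml4*, a receptor of those cells, had 21.2 and 241 (-30.8 points). *Ly6c2*, an antigen of classical monocytes, had 4138 and 15841 (-7.68 points), and *Ccr2*, their chemokine receptor, had 11894 and 2971 (6.39 points). *Cx3cr1*, the fractalkine receptor, had 781 and 1067 (-16.4 points). *Nr4a1* and *Treml4*, tied to patrolling monocytes, were past 20 points, and *Cx3cr1*, *Ly6c2* and *Ccr2* were within 20 points. The Lin- percentile of *Ly6c2* was 91.6, so it could not be 20 points higher in CD11b+ cells. *Ccr2*, with a higher Lin- mean, could not either. These calls therefore do not compare the kinds of monocyte.

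The macrophage list held calls on both sides. Of 25 genes, 6 were higher in CD11b+ and 3 in Lin- cells, and the median of -2.91 points turned to 0.17 with a mean of at least 10 required in both tables. *Cd163*, the scavenger receptor for hemoglobin, had 38.5 in Lin- and 6056 in CD11b+ cells (-74.3 points). *Vcam1*, an adhesion molecule of splenic red pulp macrophages, had 151 and 2702 (-54.9 points), and *Siglec1*, a sialic acid receptor, had 169 and 832 (-33.4 points). On the other side were *Axl*, a receptor of dying cells (1113 and 72.9, 35.05 points), *Maf*, a macrophage transcription factor (1100 and 209, 22.0 points), and *Cd5l*, a secreted inhibitor of apoptosis (336 and 37.1, 20.9 points). *Vsig4* was below 10 in both tables.

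Receptors for antibody, complement and microbes leaned to the CD11b+ cells. Of 10 Fc receptor genes 3 were higher there and 0 in Lin- cells, with a median of -13.7 points, and the activating receptor *Fcgr4* led with 96.9 and 1041 (-43.9 points). Of 16 complement genes 5 were higher there and 1 in Lin- cells, with a median of -10.5 points. *C4b*, a classical pathway component, had 7.45 and 2219 (-82.6 points), and *C5ar1*, the receptor for C5a, had 152 and 1590 (-47.2 points). The receptor for the other anaphylatoxin went the other way, *C3ar1* having 1159 and 8.31 (58.7 points). Of 11 Toll-like receptors 4 were higher in CD11b+ cells and 2 in Lin- cells, with a median of -11.8 points. *Tlr5*, the flagellin receptor, had 14.4 and 234 (-34.8 points) and *Tlr12* had 138 and 5.37 (28.6 points). *Tlr4*, the endotoxin receptor, had 564 and 615 (-10.5 points). Of 13 myeloid C-type lectins 4 were higher in CD11b+ and 0 in Lin- cells, with a median of -7.45 points, 2 of the 4 being genes with a copy or insert, and *Clec5a* had 403 and 1181 (-29.9 points).

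Calls in either direction made up 19.1% of all ranked genes, and interferon-stimulated and immediate early genes were near that share. Of 32 interferon-stimulated genes 5 were higher in CD11b+ and 1 in Lin- cells, with a median of -8.50 points, and *Oas1a*, an activator of RNase L, was at the low end (425 and 1650, -35.01 points). Of 26 immediate early genes 4 were higher in CD11b+ and 2 in Lin- cells. *Klf2*, a zinc finger transcription factor, had 421 and 2621 (-41.7 points), *Egr1*, a growth response factor, had 215 and 927 (-33.0 points), and *Atf3*, a stress transcription factor, had 385 and 8.19 (38.4 points). Of 20 cytokine and inflammasome genes 1 passed, *Il1rn*, the antagonist of the interleukin-1 receptor, with 42.9 and 765 (-45.6 points). The median of this list was 0.46 points and was below 0 under 4 of 5 alternatives.

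**Figure D3:**
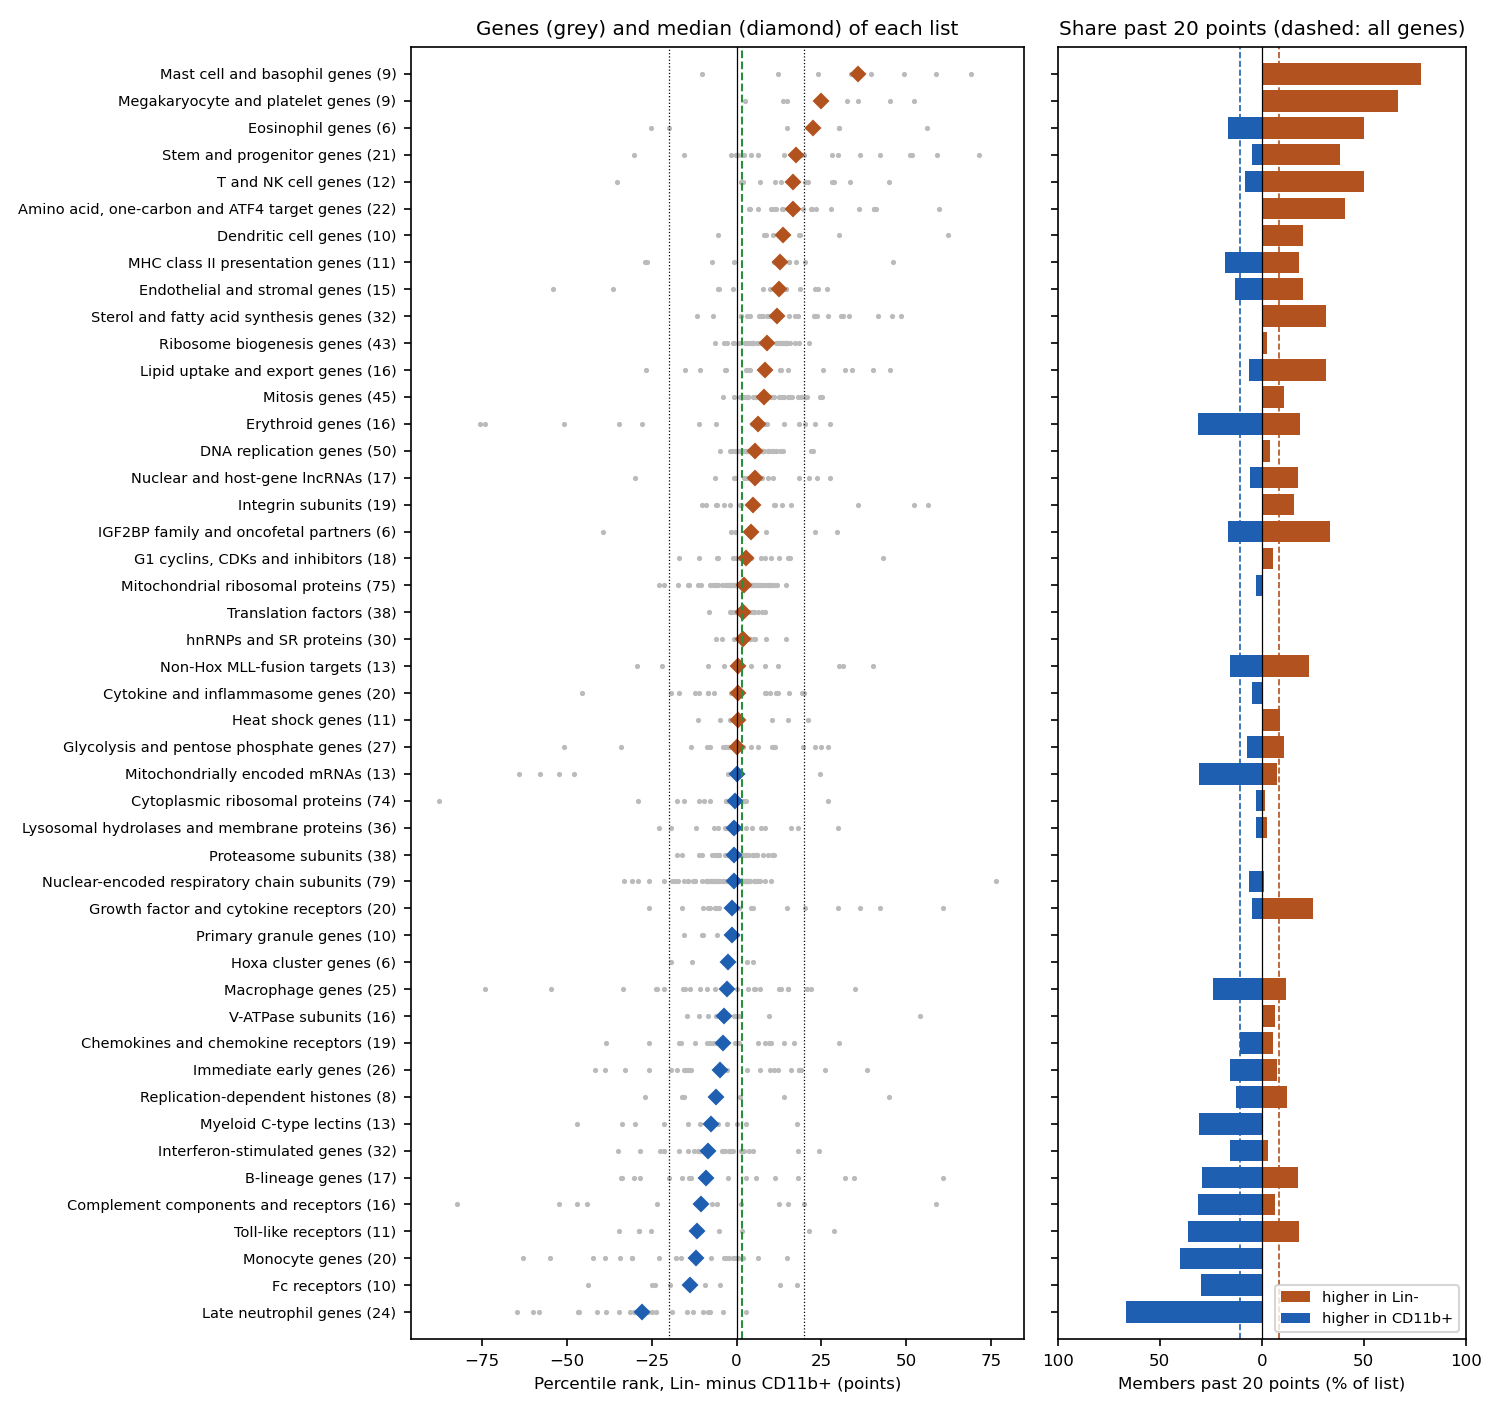
Percentile difference, Lin- minus CD11b+, of every ranked gene (grey) and the median (diamond) of 47 gene lists (left), and the share of each list at least 20 points higher in Lin- (right of 0) or in CD11b+ cells (left of 0) in percent. Dotted lines are 20 points, the green dashed line is the median of all genes, 1.55 points, and the dashed lines on the right are the shares of all genes, 8.49% and 10.6%. Mast cell and megakaryocyte genes are at the top and late neutrophil genes at the bottom, while proteasome, translation and splicing lists sit near 0 with no call.

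On the Lin- side, stem and progenitor genes had 8 of 21 members higher in Lin- cells and 1 in CD11b+ cells, with a median of 17.4 points, or 10.1 with coding genes free of inserts and copies ranked alone. *Angpt1*, the ligand of the TIE2 receptor, had 3989 in Lin- and 22.9 in CD11b+ cells (71.4 points). *Tal1*, a basic helix-loop-helix factor of stem cells, had 1431 and 13.2 (59.0 points). *Adgrg1*, an adhesion receptor of stem cells, had 12263 and 240 (51.8 points), and *Sox4*, a progenitor transcription factor, had 9624 and 238 (51.1 points). These 4 were all past 50 points. The member on the other side was *Prom1*, a membrane glycoprotein of progenitors, with 119 and 608 (-30.3 points).

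MLL targets did not follow the progenitor list. Of 6 *Hoxa* genes ranked, 0 passed in either direction, with a median of -2.52 points. *Hoxa9*, a homeobox gene that MLL fusions keep on, had 4541 and 2332 (3.15 points), *Hoxa7* had 2102 and 1506 (-1.80 points) and *Hoxa10* had 531 and 888 (-19.5 points). Of 13 other MLL-fusion targets 3 were higher in Lin- and 2 in CD11b+ cells, and their median of 0.47 points turned to -0.22 on the centred log2 scale. *Mecom*, a stem cell zinc finger factor, had 321 and 3.44 (40.3 points), *Bcl2*, an inhibitor of apoptosis, had 8150 and 653 (31.5 points), and *Meis1*, a cofactor of HOXA9, had 2452 and 356 (30.3 points). *Pbx3*, another HOX cofactor, had 211 and 554 (-22.1 points). The 2 HOX cofactors were thus on opposite sides. Among fetal RNA regulators, *Lin28b* had 175 and 7.11 (29.6 points) and its paralog *Lin28a*, which like it blocks let-7 maturation, had 90.9 and 809 (-39.3 points).

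Genes of other myeloid lineages were also called in Lin- cells. Of 9 mast cell and basophil genes 7 were higher in Lin- and 0 in CD11b+ cells, with a median of 35.7 points. *Cpa3*, the carboxypeptidase of mast cells, had 2826 and 46.3 (58.8 points), *Prss34*, a basophil protease, had 444 and 0.54 (49.5 points), and *Ms4a2*, the beta chain of the IgE receptor, had 833 and 38.0 (35.7 points). Their IgE-binding chain *Fcer1a* is listed only in the Lin- table, with 25.6. Of 9 megakaryocyte genes 6 were higher in Lin- and 0 in CD11b+ cells, with a median of 24.8 points, or 14.5 with coding genes free of inserts and copies ranked alone. *Itga2b*, the integrin chain of platelets, had 1922 and 42.9 (52.4 points), and *Pf4*, platelet factor 4, had 393 and 1.80 (45.3 points). Of 6 eosinophil genes 3 were higher in Lin- and 1 in CD11b+ cells, and *Prg2*, the major basic protein, had 2450 and 47.3 (56.1 points). Of 10 dendritic cell genes 2 passed, both in Lin- cells, and *Siglech*, a marker of plasmacytoid dendritic cells, had 5631 and 74.7 (62.3 points). In these bulk libraries, fewer cells of a type and less RNA per cell cannot be told apart.

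Lymphoid genes had calls on both sides. Of 17 B-lineage genes 5 were higher in CD11b+ and 3 in Lin- cells. *Il7r*, the receptor for interleukin-7 of lymphoid progenitors, had 1155 and 5.60 (60.8 points), *Dntt*, the terminal transferase, had 129 and 0.31 (34.7 points), and *Rag2*, a recombinase subunit, had 134 and 2.11 (32.0 points). *Cd79a*, a chain of the B cell receptor complex, had 5.77 and 146 (-34.2 points), and *Ms4a1*, which encodes CD20, had 1.10 and 69.1 (-30.2 points). Of 12 T and NK cell genes 6 were higher in Lin- and 1 in CD11b+ cells, with a median of 16.7 points, or 5.88 with coding genes free of inserts and copies ranked alone. *Klrd1*, an NK cell lectin, had 429 and 3.15 (45.1 points), and *Gzmb*, granzyme B, had 224 and 5.95 (33.4 points). The defining T cell genes *Cd3d*, *Cd3g*, *Cd8a* and *Trac* were below 10 in both tables.

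Erythroid genes also had calls on both sides. Of 16, 5 were higher in CD11b+ and 3 in Lin- cells, with a median of 6.36 points that was 1.04 with a mean of at least 50 required in at least 1 table. The globins were in the spleen: *Hba-a1* had 5.85 and 1268 (-74.2 points), its near-identical copy *Hba-a2* 3.27 and 1243 (-75.6 points), *Hbb-bs* 52.2 and 1083 (-51.0 points) and *Hbb-bt* 181 and 915 (-34.6 points). *Alas2*, the erythroid enzyme of heme synthesis, had 0.34 and 48.8 (-27.9 points). *Gata1*, the erythroid and megakaryocyte transcription factor, had 165 and 8.96 (27.6 points) and *Epor*, the receptor for erythropoietin, had 49.8 and 3.41 (20.1 points). Of 15 endothelial and stromal genes 3 were higher in Lin- and 2 in CD11b+ cells, and *Acta2*, smooth muscle actin, had 13.6 and 641 (-54.2 points). The median of that list, 12.4 points, turned to -1.15 with a mean of at least 10 required in both tables. The part of other cells in the myeloid differences was not tested.

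Genes of biosynthesis ranked higher in the cultured cells. Of 22 amino acid, one-carbon and ATF4 target genes 9 were higher in Lin- and 0 in CD11b+ cells, all 22 had a positive difference, and the median was 16.7 points. *Aldh1l2*, a mitochondrial folate enzyme, had 382 and 5.41 (40.5 points), *Trib3*, a pseudokinase induced by ATF4, had 715 and 18.8 (40.4 points), and *Cth*, which makes cysteine, had 322 and 7.93 (36.2 points). *Pycr1*, of proline synthesis, had 700 and 58.3 (27.8 points), and *Slc7a5*, the leucine transporter, had 8482 and 1016 (22.0 points). *Atf4* itself had 6437 and 2847 (3.74 points). The list also holds *Phgdh*, of serine synthesis (59.6 points), and *Slc7a11*, the cystine transporter (41.2 points), both genes with a copy or insert. Without its 5 members of that kind, 7 of 17 were higher in Lin- cells, with a median of 17.8 points.

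Sterol and fatty acid genes also ranked higher in culture. Of 32, 10 were higher in Lin- and 0 in CD11b+ cells, with a median of 11.8 points. *Elovl6*, a fatty acid elongase, had 1637 and 44.9 (48.4 points), and *Sqle*, squalene epoxidase, had 1880 and 116 (41.6 points). *Srebf2*, the factor that drives the sterol genes, was within 20 points (9548 and 1922, 10.96 points). Of 16 lipid uptake and export genes 5 were higher in Lin- and 1 in CD11b+ cells. *Fabp5*, a fatty acid binding protein, had 1321 and 39.1 (45.2 points), *Abca1*, the cholesterol exporter, had 1766 and 191 (34.0 points), and *Olr1*, a receptor for oxidized LDL, had 608 and 1454 (-26.8 points). Synthesis and export genes were thus both among the higher ones.

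Division genes were shifted by small amounts. Of 45 mitosis genes 5 were higher in Lin- and 0 in CD11b+ cells, with a median of 8.21 points, and 43 had a positive difference. *Mki67*, the proliferation antigen, had 28600 and 8547 (1.76 points), and *Knl1*, a kinetochore scaffold, had 2928 and 549 (24.7 points). Of 50 DNA replication genes 2 passed, both in Lin- cells, with a median of 5.55 points, and of 43 ribosome biogenesis genes 1 passed, *Gnl3*, which encodes nucleostemin (3058 and 668, 21.4 points), with a median of 9.09. Among 18 genes of G1, the D cyclin *Ccnd2* was the call, with 12193 and 394 (43.1 points), and *Cdk6* ranked alike (27299 and 37747, -0.10 points). The median of that list was 2.85 points. Calls in these lists were near or below the 8.49% of all ranked genes that were called higher in Lin- cells. The median of all ranked genes was 1.55 points.

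Housekeeping lists ranked alike. None of 38 translation factors, 30 hnRNPs and SR proteins or 38 proteasome subunits passed 20 points, with medians of 1.93, 1.92 and -0.63. Their median Lin- percentiles were 94.3, 95.9 and 83.0, so many of these genes could not be 20 points higher in CD11b+ cells. On the centred log2 scale the medians were 0.18, 0.22 and -0.19. Of 74 cytoplasmic ribosomal protein genes 3 passed, *Rps10*, *Rpl29* (985 and 3517, -29.0 points) and *Rpl13a* (2016 and 351, 26.9 points), all with pseudogene copies, and the 16 members without such copies held 0 calls. Of 36 lysosomal genes 2 passed, *Lgmn*, an endopeptidase (2483 and 366, 29.9 points), and *Neu1*, a sialidase (1237 and 3055, -22.9 points). Of 16 V-ATPase subunits 1 passed, *Atp6v0d2*, a subunit of osteoclasts and macrophages (729 and 2.87, 54.1 points).

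The remaining lists had calls on both sides or few calls. Of 79 nuclear-encoded respiratory chain subunits 1 was higher in Lin- and 5 in CD11b+ cells, with a median of -0.82 points, and of 75 mitochondrial ribosomal proteins 2 passed, both in CD11b+ cells, with a median of 2.14. The 13 mitochondrially encoded mRNAs held 1 call in Lin- and 4 in CD11b+ cells, the latter *mt-Co2*, *mt-Atp8*, *mt-Atp6* and *mt-Co3* whose nuclear copies were described. Of 27 ranked glycolysis and pentose phosphate genes 3 were higher in Lin- and 2 in CD11b+ cells. *Pfkm*, a phosphofructokinase, had 1407 and 214 (26.96 points), and *Ldhb*, a lactate dehydrogenase chain, had 33.1 and 386 (-34.2 points). The glycolysis median of 0.08 points turned below 0 under 4 alternatives and that of 11 heat shock genes, 0.40 points with 1 call in Lin- cells, under 2. Of 19 chemokines and their receptors 1 was higher in Lin- and 2 in CD11b+ cells, with a median of -4.04 points. *Ccr7*, which guides cells to lymph nodes, had 315 and 14.7 (30.2 points), and the chemokine *Ccl6* had 346 and 1695 (-38.6 points). Of 8 replication-dependent histone genes 1 passed on each side (median -5.96 points), of 17 nuclear and host-gene lncRNAs 3 passed in Lin- and 1 in CD11b+ cells (median 5.30 points), and of 2 ranked sex chromosome genes 1 passed, *Ddx3y*.

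Receptor, integrin and antigen presentation genes were also counted. Of 20 growth factor and cytokine receptors 5 were higher in Lin- and 1 in CD11b+ cells, the latter *Csf2ra*, the alpha chain for GM-CSF (1477 and 13039, -25.8 points). *Csf2rb*, the common beta chain, had 4645 and 8975 (-5.22 points). Of 19 integrin subunits 3 were higher in Lin- and 0 in CD11b+ cells. Besides *Itga2b*, *Itgb3*, its partner on platelets, had 2935 and 315 (35.7 points). *Itga9* was at 56.6 points and is a gene with a copy or insert. Of 11 MHC class II genes 2 passed on each side. *H2-Ob*, a chain of the inhibitor of peptide loading, had 2419 and 120 (46.2 points), and *H2-DMb1*, a chain of the loading factor that it inhibits, had 683 and 1637 (-27.0 points).

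The genes farthest apart were named by size among those with a mean of at least 100 in the higher cell type and a symbol that is not that of a predicted gene. On the Lin- side *Ntm*, a neural adhesion protein anchored by lipid, had 15630 in Lin- and 3.94 in CD11b+ cells (93.6 points). *Cdh17*, an intestinal cadherin, had 3493 and 6.46 (81.7 points), and *Gem*, a small GTPase, had 3411 and 8.74 (79.7 points). *Cdh17* and *Gem* are neighbours among the ranked genes of chromosome 4. *Cox6a2*, the heart and muscle isoform of a cytochrome oxidase subunit, had 1970 and 2.21 (76.4 points). It lies wholly inside *Itgad* on the opposite strand, and the part of that overlap in its values was not tested. *Anpep*, the aminopeptidase CD13 of myeloid cells, had 1999 and 3.77 (74.5 points). *Nrgn*, a calmodulin-binding protein, had 1754 and 2.54 (73.5 points), and *Fads2*, a fatty acid desaturase, had 5827 and 27.9 (72.7 points). *Mn1*, a transcriptional coregulator and myeloid oncogene, had 1409 and 0.37 (71.8 points), and *Slc35d3*, a transporter needed for platelet dense granules, had 1517 and 0.48 (73.5 points). *Scin*, an actin-severing protein, had 11097 and 46.9 (70.7 points), and *Iqcm*, a gene with an insert, had 3934 and 12.995 (77.7 points). Neural, intestinal and muscle genes thus stood beside hematopoietic ones.

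On the CD11b+ side *Dmrtb1*, a transcription factor of male germ cells, had 1.85 in Lin- and 3078 in CD11b+ cells (-90.2 points). *Penk*, the precursor of enkephalins, had 9.47 and 3455 (-85.8 points), *Chil4*, a chitinase-like protein, had 15.7 and 6084 (-84.1 points) and *Ccdc154* had 6.02 and 1359 (-75.3 points). *Rpl30-ps9* (-79.7 points), *Pax6os1* (-82.5 points) and *Mtcl1* (-80.2 points) were also among the 12 largest under that rule and are a pseudogene, an antisense RNA and a gene with an insert. Outside that rule, and chosen after their values were seen, *Siglece*, a sialic acid receptor of myeloid cells, had 26.9 and 2721 (-72.6 points), and *Olfm4*, a granule protein of some neutrophils, had 41.8 and 4211 (-71.5 points).

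**Figure D4:**
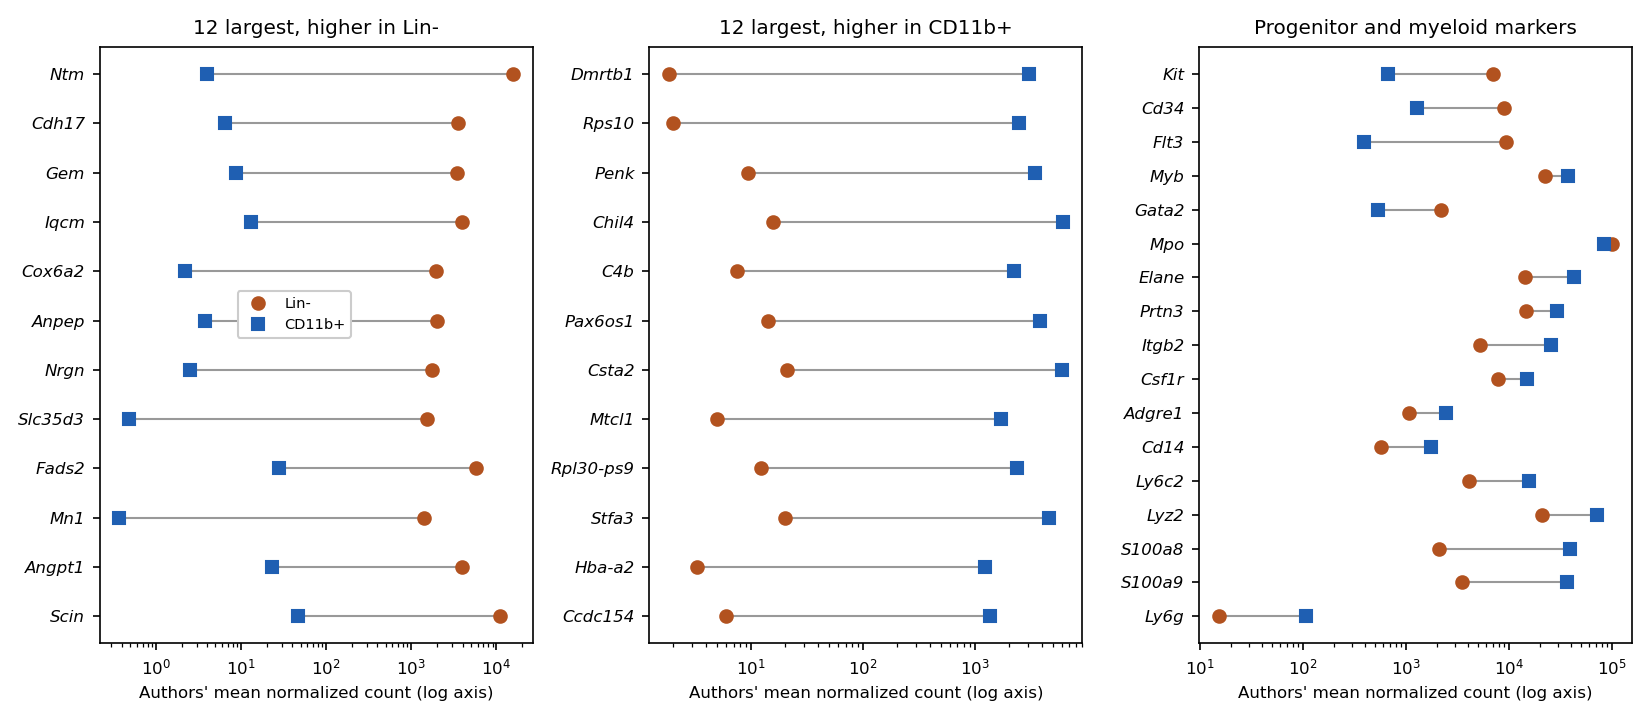
The authors' mean normalized count in Lin- (circles) and CD11b+ cells (squares) on a log axis, for the 12 largest differences on each side among genes with a mean of at least 100 and no predicted gene symbol, and for the progenitor and myeloid markers. Each gene has 1 mean per cell type, so no error bar can be drawn. *Ntm* runs from 3.94 to 15630 and *Dmrtb1* from 1.85 to 3078, while *Mpo* is nearly the same in both.

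Some genes that 1 table did not list had high means in the other. The largest on the Lin- side were *Gm50306* (48808), *Adgra3*, an adhesion receptor (731), *Pgr*, the progesterone receptor (515.0), *Vldlr*, a lipoprotein receptor (492), and *Ttpa*, a vitamin E transfer protein (372). On the CD11b+ side they were *Gm49652* (1899), *Prps1l1* (827), *Cyp2a5* (228), *Igkv5-39* (209) and *Gm16199* (162). In all, 147 genes with a mean of at least 10 were in the Lin- table only and 180 in the CD11b+ table only, and these have no rank difference. The highest means of all were shared: *mt-Co1* was at the top of both tables, with 0.42% of the sum of means in Lin- and 0.96% in CD11b+ cells, not scaled by gene length.

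Several neighbouring genes were called on the same side. The stefin A cluster, a set of cysteine protease inhibitor genes at chr16:36119946-36455392 (GRCm38), had all 10 of its ranked protein-coding genes higher in CD11b+ cells, with differences from -31.1 to -80.8 points. Their means summed to 438 in Lin- and 70824 in CD11b+ cells. *Stfa1* had 110 and 20398 (-66.6 points), *Cstdc5* 76.0 and 18182 (-70.3 points), *Csta2* 20.95 and 6048 (-80.8 points) and *Stfa3* 20.2 and 4608 (-79.7 points). The copies are near-identical, so the share of each is uncertain. On chromosome 5 the paired immunoglobulin-like receptors *Pilra* (79.5 and 5708, -66.9 points), *Pilrb1* (37.6 and 2328, -67.3 points) and *Pilrb2* (32.6 and 2486, -69.6 points) lay in a run of 4 with *Azgp1*, and share sequence as well. On chromosome 7 a run of 6 genes held the receptors *Pirb*, *Pira2*, *Lilra6* and *Lair1* (chr7:3711409-4063204), and another of 6 held *Cd177* and its neighbours (chr7:24709242-24902197). The runs on the Lin- side were *Gabarapl1* with the NK receptor genes *Klrd1*, *Klrk1* and *Klri1* (chr6:129533160-129717132) and *Plscr4*, *Plod2*, *Dipk2a* and *Chst2* (chr9:92457373-95406722).

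Promoters of 5 genes of the stefin and Pilr clusters are shown because the genes of each cluster were called on the same side, and these 5 were chosen after the search because they hold both motifs. Each is 250 bases before to 50 bases after the RefSeq start on GRCm38.p6, 5′ to 3′ on the strand of the gene. Capitals mark matches to the motifs of C/EBP and GATA factors, which do not overlap and were searched on both strands. For C/EBP the letters were TTGCNNAA. Those for GATA factors were AGATAAG. *Stfa1* is chr16:36276898-36277197 on the plus strand and *Cstdc5* chr16:36367521-36367820 on the minus strand. *Pilra* is chr5:137836229-137836528, *Pilrb1* chr5:137858000-137858299 and *Pilrb2* chr5:137871709-137872008, all on the minus strand.
Stfa1: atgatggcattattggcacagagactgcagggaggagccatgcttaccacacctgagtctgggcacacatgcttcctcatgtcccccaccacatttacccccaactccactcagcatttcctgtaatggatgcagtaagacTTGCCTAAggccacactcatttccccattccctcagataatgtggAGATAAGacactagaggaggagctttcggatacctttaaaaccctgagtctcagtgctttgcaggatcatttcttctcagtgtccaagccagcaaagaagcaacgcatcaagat
Cstdc5: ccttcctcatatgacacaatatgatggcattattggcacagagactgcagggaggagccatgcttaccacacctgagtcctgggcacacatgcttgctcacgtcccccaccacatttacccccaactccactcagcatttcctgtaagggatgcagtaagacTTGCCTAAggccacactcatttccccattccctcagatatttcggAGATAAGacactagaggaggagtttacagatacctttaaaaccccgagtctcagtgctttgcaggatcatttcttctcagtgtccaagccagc
Pilra: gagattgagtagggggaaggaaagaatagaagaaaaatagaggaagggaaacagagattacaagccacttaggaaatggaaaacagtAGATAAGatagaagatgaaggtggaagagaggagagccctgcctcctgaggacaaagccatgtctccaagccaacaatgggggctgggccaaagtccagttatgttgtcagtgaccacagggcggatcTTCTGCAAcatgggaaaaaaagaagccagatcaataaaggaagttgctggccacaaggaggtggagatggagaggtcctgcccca
Pilrb1: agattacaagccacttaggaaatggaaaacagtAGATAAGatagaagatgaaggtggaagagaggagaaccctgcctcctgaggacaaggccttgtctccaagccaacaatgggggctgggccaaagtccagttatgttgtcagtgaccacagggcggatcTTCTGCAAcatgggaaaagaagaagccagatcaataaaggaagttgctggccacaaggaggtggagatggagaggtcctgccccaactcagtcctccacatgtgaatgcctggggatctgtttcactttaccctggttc
Pilrb2: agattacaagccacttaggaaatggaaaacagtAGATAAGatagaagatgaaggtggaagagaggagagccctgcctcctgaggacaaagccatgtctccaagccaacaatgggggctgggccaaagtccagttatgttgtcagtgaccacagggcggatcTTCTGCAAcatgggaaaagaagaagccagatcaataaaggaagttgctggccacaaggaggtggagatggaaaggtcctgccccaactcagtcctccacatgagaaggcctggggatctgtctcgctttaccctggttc

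The C/EBP match began 45 bases before the GATA match in *Stfa1* and in *Cstdc5*, and 128 bases after it in the 3 Pilr genes (a spacing of -128). The promoters of *Stfa1* and *Cstdc5* were 79.6% identical over 279 bases without gaps, and those of *Pilrb1* and *Pilrb2* 97.3% over 300 bases, so the matches within a cluster are copies and not independent. Of 9 stefin cluster genes with a promoter sequence, 3 held the C/EBP and 3 the GATA motif. Other motifs were searched as well, among them the interferon response motif ISRE. All 3 Pilr genes held the C/EBP, GATA and ISRE motifs, and 0 of the 9 stefin genes held ISRE. Among all 32851 mouse promoters of this length, 10.8% held the C/EBP motif, 3.04% the GATA motif and 0.39% both. The ISRE motif was in 3.44% of them. A match is a run of letters and not a bound site. A check of motifs or GC content over all called genes is void, since promoter sequences matched only 75.7% and 75.9% of the protein-coding genes without copies or inserts that were higher in Lin- and in CD11b+ cells.

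Length differed between the classes of protein-coding genes without copies. The median span from start to end was 33.9 kb for the 916 genes higher in Lin- cells, 17.2 kb for the 698 higher in CD11b+ cells and 21.9 kb for all 11277. Their longest annotated transcripts had medians of 3.81, 2.74 and 3.27 kb. Genes higher in Lin- cells were thus the longer ones on both measures, as a description with no test.

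The IGF2BP3 eCLIP libraries give a readout that the ranks did not use. In eCLIP, RNA crosslinked to a protein is pulled down with it and sequenced, and the authors called peaks per library and removed those that overlap peaks of a size-matched input. The cells were WT/MLL-Af4. The 3 biological Lin- libraries held 7361, 10042 and 8685 peaks, and the 2 biological CD11b+ libraries 8521 and 10054. Of peaks on ranked genes, those on genes higher in Lin- cells were 4.71%, 6.12% and 6.13% in Lin- libraries (5.65% ± 0.82, SD, n = 3) and 2.31% and 3.88% in CD11b+ libraries (3.09% ± 1.11, SD, n = 2). The groups did not overlap, against the 8.49% of all ranked genes in that class. Peaks on genes higher in CD11b+ cells were 1.08%, 2.44% and 1.64% in Lin- libraries (1.72% ± 0.68, SD, n = 3) and 6.90% and 6.62% in CD11b+ libraries (6.76% ± 0.20, SD, n = 2), against 10.6% of ranked genes. These did not overlap either, and no test was run, because 3 libraries against 2 cannot give an exact p below 0.1. A peak needs RNA to be found in, and the part of RNA level in these shares was not tested.

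The size-matched inputs show the level without the antibody. On genes higher in Lin- cells lay 7.47% to 14.0% of the peaks of the 6 Lin- inputs (median 12.97%) and 12.1% to 14.7% of those of the 4 CD11b+ inputs (median 12.3%), and the groups overlapped. On genes higher in CD11b+ cells lay 2.72% to 4.36% (median 3.55%) in Lin- and 4.98% to 5.69% (median 5.36%) in CD11b+ inputs, without overlap. The labels do not say which inputs are technical repeats, so the 6 and the 4 may be fewer independent samples. The inputs split the same way as the eCLIP libraries on the CD11b+ side and not on the Lin- side. Inputs had 217 to 1885 peaks each, so their shares are less precise, and their deduplication and peak calling settings differed from those of the eCLIP libraries.

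**Figure D5:**
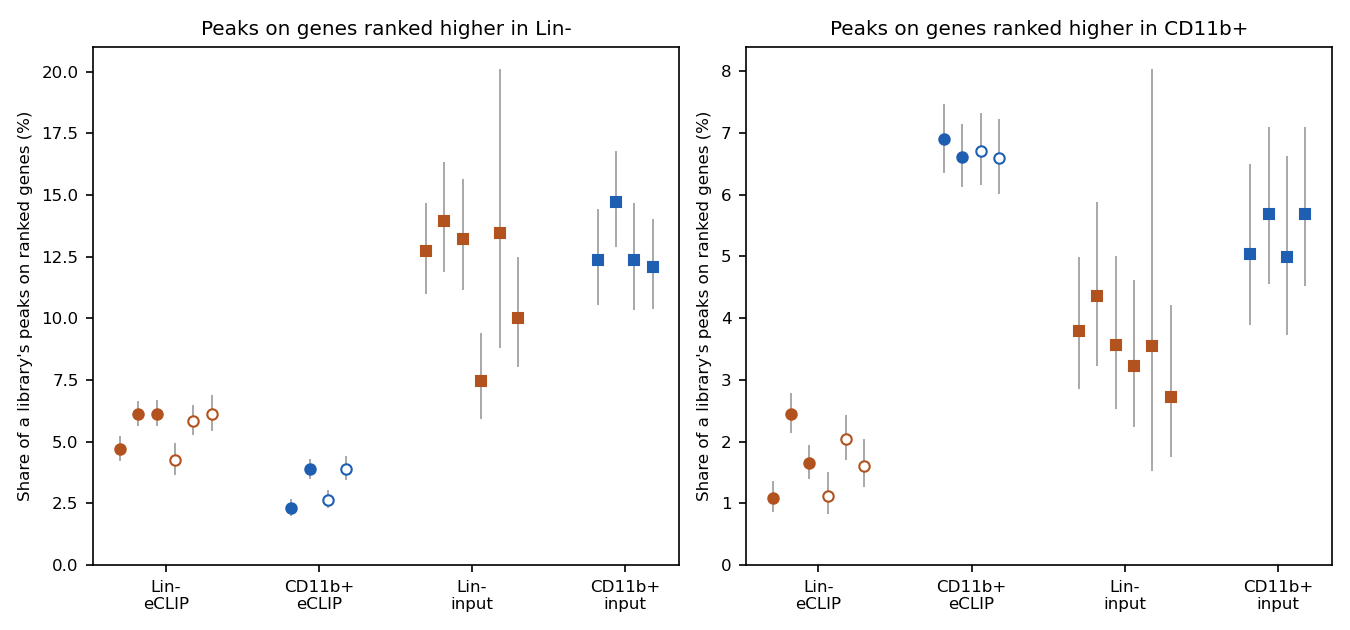
Share of each library's peaks on ranked genes that lie on genes at least 20 points higher in Lin- (left) or in CD11b+ cells (right), in percent. Filled circles are biological and open circles technical eCLIP libraries, squares are size-matched inputs, and bars are Wilson 95% intervals, which cover counting error only. On the right, CD11b+ eCLIP libraries lie near 6.76% and Lin- libraries near 1.72%.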

How the data were processed

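RNA-seq was done on 6 Lin- and 6 CD11b+ MLL-Af4 libraries, and the members and lists described here were chosen with earlier results of these data known. Per the methods and the submitters' processing notes, the authors masked repeats with Bowtie2, aligned reads to mm10 with STAR 2.5.3a and compared genotypes with DESeq2 for CD11b+ and fdrtool for Lin- cells, with a table for each. The deposited signal used here is the mean normalized count per gene (the base mean column) over the 6 libraries of a cell type, not scaled by length. How reads of copies were counted and whether strand was used are not given in the sources used here, and the tables hold no library totals. The other columns hold the authors' genotype comparisons and binding scores and were not used.

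Gene IDs were matched to GENCODE M21 (28762 of 28827). Genes with a mean of at least 10 in at least 1 table were ranked within each table (Python 3.11.15, pandas 2.3.3, NumPy 2.4.6, SciPy 1.17.1), and a difference of 20 points was called. Log2 ratios used a pseudocount of 1. Named genes were the 12 largest on each side with a mean of at least 100, predicted genes left out, with members of 48 fixed lists. The script was tested on simulated data. eCLIP peaks, with a peak p-value that the authors deposited and that was not used as a filter, were assigned to genes by the ID in their name. Alternatives changed the filter, gene set, size rule and pseudocount. Some list members are not reported here. Promoters came from RefSeq (GRCm38.p6).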

Additional observations from a re-analysis of the deposited data

Results flagged for a closer look

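Of 18 checks, each of 1 quantity in a group of 4 to 10 libraries, 1 found a value far from the rest. Chance marks about 1 in 20 independent checks, but these share libraries, so that rate need not hold. In CD11b+ size-matched input replicate 2, 14.7% of the peaks on ranked genes lay on genes higher in Lin- cells, against 12.4% in the nearest and 12.1% in the lowest of the 4 inputs. Its cause was not tested.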

How the results depend on the processing

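No paired analysis was possible because the rank differences come from no test, with 1 mean per cell type. The calls, 1518 higher in Lin- and 1900 higher in CD11b+ cells, became 909 and 1000 with protein-coding genes ranked alone, 714 and 850 with coding genes free of inserts and copies ranked alone, 3992 and 3730 at 10 points, and 700.0 and 1061 at 30 points. These follow from fewer genes ranked or another size rule. A centred log2 ratio of at least 2 called 1753 and 2764 genes, of which 1279 and 1752 were also rank calls. With a pseudocount of 10 it called 1119 and 2160, so that 34.1% of calls were on the Lin- side against 44.4% by rank. Of 48 list medians 39 did not turn from positive to negative or back under the alternatives that could be computed. Lists of mitochondrially encoded mRNAs and lncRNAs have no value with coding genes alone. Of nonzero medians, 20 of 47 moved by over 1.5 times with ranks over all genes, 12 of 47 with a mean of at least 10 in both tables, 8 of 47 with at least 50 in 1, and 21 of 45 with coding genes free of inserts and copies. On the centred log2 scale the median of mitochondrially encoded mRNAs went from 0 to -0.42 and 4 positive medians turned negative: other MLL targets (-0.22), cytokines (-0.16), heat shock (-0.01) and glycolysis (-0.37).

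Without 1 biological eCLIP library at a time, the difference in share of peaks, Lin- minus CD11b+, ran from 1.78 to 3.35 points on genes higher in Lin- cells and from -5.39 to -4.71 on genes higher in CD11b+ cells, and for inputs from -1.49 to -0.19 and from -1.98 to -1.65. Counting genes with a peak in place of peaks gave -4.11 against -5.03 on genes higher in CD11b+ cells. What limits every rank difference is the single mean per cell type.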
